A study of Homo sapiens with 8 samples.

Results

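The genes examined here encode the RNA polymerase II transcription machinery: the polymerase, Mediator, TFIID and other TAF proteins, the general factors named GTF2 and GTF3, elongation factors, Integrator, and the factors that cut and polyadenylate the 3' end of mRNA. They were chosen by symbol from a deposited table of N1-methyladenosine (m1A) positions. The symbols start with POLR2, MED, TAF, GTF2, GTF3, SUPT, INTS, CPSF, CSTF, NELF or AFF, or are ELL. They matched 56 of the 4945 genes of the table and 121 of its 9962 positions. In the study, neuroblastoma cells received small interfering RNA against TRMT6 or a control, and m1A-containing fragments of polyadenylated RNA were immunoprecipitated and sequenced. The groups used were siTRMT6 (2 libraries) and control (2 libraries). The labels name the cells SK-N-BE in the titles and SK-N-AS elsewhere, and both are neuroblastoma lines. Nothing in the labels tells if replicates came from separate cultures, so p-values here cover library-to-library spread that may be purely technical. TRMT6 itself had no listed position, so its silencing could not be checked. Input libraries are not used here, so fewer m1A-bearing copies of a transcript and fewer copies of it cannot be told apart.

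TRMT6 binds RNA for the methyltransferase TRMT61A, and together they make m1A in transfer RNA and in some mRNAs that fold alike. RNA polymerase II makes mRNA. TFIID recognises the promoter, the general factors complete the initiation complex, Mediator carries signals from activators to the polymerase, NELF and DSIF hold the polymerase in promoter-proximal pausing, and Integrator and the cleavage and polyadenylation factors end transcripts. Several matched symbols name proteins outside the steps just named. GTF3C proteins form TFIIIC, a factor of RNA polymerase III, TAF1C and TAF1D belong to the SL1 factor of RNA polymerase I, TAF15 is an RNA-binding protein, and SUPT7L, TAF5L and TAF6L belong to SAGA-type acetyltransferase complexes.

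The base letter at a listed position could be read only where a position lay within a RefSeq window of any gene's start, which runs from 250 bases before it to 50 bases into the gene. Printing a position also needed 10 window bases on each side and did not cover every chromosome, so not every such position is shown. For the transcription genes 8 positions in 7 genes met these conditions, 1 on a plus-strand transcript and 7 on minus-strand ones. They are printed 5' to 3' on the transcript strand, from RefSeq (GRCh38.p14), with 10 bases on each side and the listed base in capitals, because an m1A base would read A on this strand.
CPSF3, chr2:9423753-9423773, plus strand: cttcgccctcAcactttcggg
POLR2I, chr19:36114902-36114922, minus strand: ccgcgacctgTagcgcggcgg
TAF6, chr7:100119358-100119378, minus strand: caggacctgcTcccacgaggg
TAF10, chr11:6612192-6612212, minus strand: tcgccgcctcTcccaccggcc
TAF11, chr6:34887995-34888015, minus strand: tccgagcttcTgcctcaggca
TAF11, chr6:34888005-34888025, minus strand: agctcgggttTccgagcttct
TAF12, chr1:28643042-28643062, minus strand: gaccggctgcTgagacgaacg
TAF1D, chr11:93741552-93741572, minus strand: ctcgccttctTcccggaagct
All 8 lay in a 5' UTR. The listed base was A on the transcript strand in CPSF3 and T at the 7 positions of POLR2I and the TAF genes. Over the whole table, 511 listed positions lay in such windows. The 127 on plus-strand transcripts all read A on the transcript strand, and the 341 on minus-strand transcripts all read T. The other 43 were listed for transcripts of both strands. The plus strand of the genome read A at all 511. Of the 121 positions of transcription genes, 36 lay on minus-strand transcripts and 85 (70.2%) on plus-strand ones, against 74.0% plus-strand positions in the whole table, each counted by the strand listed first. The part of strand in the counts below was not tested, and the base at positions outside these windows was not read. Positions are therefore given as listed, and the minus-strand genes were POLR2I, MED1, MED6, MED16, MED22, MED24, MED26, TAF1C, TAF1D, TAF4, TAF5L, TAF6, TAF7, TAF9, TAF10, TAF11, TAF12, GTF2A1, GTF2E2, GTF2IP1, GTF3C1, GTF3C2, SUPT7L, CPSF1 and CSTF2T.

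The listed positions held 40771 reads in siTRMT6 1, 13812 in siTRMT6 2, 8655 in control 1 and 46007 in control 2. These are reads at listed positions, not sequencing depth. The transcription genes took 508, 134, 56 and 449 of these reads in the same order of libraries, or 1.25%, 0.97%, 0.647% and 0.976%. Every position of a transcription gene had reads in 1 condition only: 66 in siTRMT6 and 55 in control. The same held for all but 14 of the 9962 positions of the whole table. In the authors' deposited table these 66 were called higher and these 55 lower in siTRMT6 at an adjusted p below 0.05, as 49.6% and 50.4% of all positions were. The table lists only positions with p below 0.05, and that p was a function of the summed reads of each condition, with no account of the spread between replicates. A called position is therefore not a replicated change. A listed 0 could stand for no reads or for no call at that base, and the sources do not say which. Summed over the libraries, reads at 1 position of a transcription gene ran from 5 to 21, with a median of 8, against a median of 9 in the whole table. Among neuroblastoma markers, 7 of 9 noradrenergic genes had a listed position, MYCN and DBH among them. Of 9 mesenchymal markers FOSL2, TWIST1 and VIM had one, and of 4 blood markers none had.

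**Figure D1:**
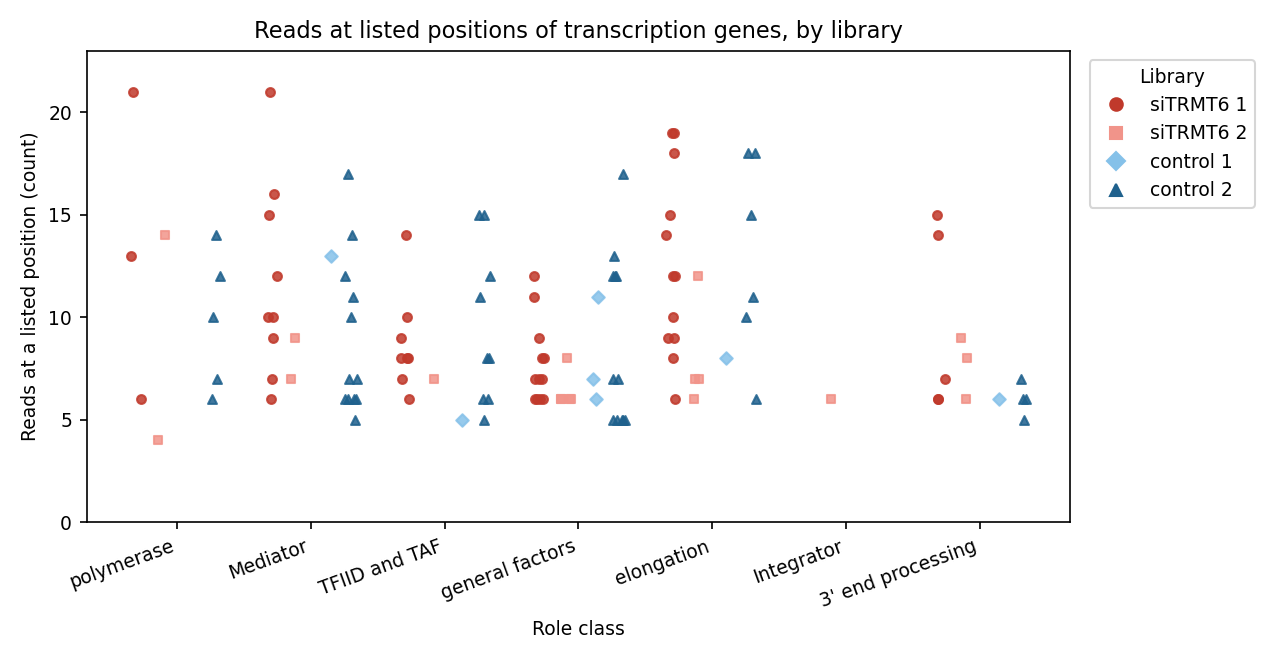
Reads (count, y axis) at each listed position of a transcription gene, by role class (x axis) and library (colour and marker); each point is 1 position in 1 library with reads. Points run up to 21 reads in siTRMT6 1 (POLR2A and MED16) and 18 in control 2 (SUPT6H).

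Of the polymerase genes, 5 had a position: POLR2A, POLR2B, POLR2F, POLR2I and POLR2K. POLR2A, the largest, catalytic subunit, had 4 positions, all in coding sequence on chromosome 17. In siTRMT6 1 there were 13 reads at 7496834 and 21 at 7514123, in siTRMT6 2 there were 14 at 7513978, and in control 2 there were 14 at 7503287. Summed over the gene this gave 34 and 14 reads in the siTRMT6 libraries, against 0 and 14 in the controls. The equal counts of siTRMT6 2 and control 2 are unscaled, and these libraries held 13812 and 46007 listed reads. With scaling, the edgeR log2 fold change of the gene was 2.14 (edgeR adjusted p = 0.9998). The most downstream siTRMT6 1 and siTRMT6 2 positions lay 145 nt apart, and no control position of the gene was listed within 200 nt of them. The authors' deposited table gave the position with 21 reads a log2 fold change of 5.21.

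POLR2B, the second-largest subunit, which forms the active centre with POLR2A, had the only position of a transcription gene with reads in 2 libraries: 6 reads in siTRMT6 1 and 4 in siTRMT6 2 at 57023559 of chromosome 4 (coding sequence), and none in the controls. Its other position, at 57030358, had 7 reads in control 2. The small subunits were listed in control 2 alone. POLR2F, a subunit shared by all nuclear RNA polymerases, had 10 reads there, POLR2I had 12 in its 5' UTR (minus strand) and POLR2K, also shared, had 6 in its 3' UTR.

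Mediator had 24 positions in 11 genes, 11 with siTRMT6 reads and 13 with control reads. The reads were nearly equal, 122 in siTRMT6 and 120 in control. MED1 (minus strand), a subunit contacted by nuclear receptors, had 15 reads in siTRMT6 1 and 0 in siTRMT6 2, against 13 in control 1 and 17 in control 2, over 3 coding positions on chromosome 17. The siTRMT6 1 position at 39410317 lay 55 nt from the control 2 position at 39410262. MED15, a tail subunit bound by activators, had 6 and 9 reads in siTRMT6, against 0 and 26 in control, over 5 positions on chromosome 22; its 3' UTR position at 20587527, with 14 control 2 reads, was also listed for a non-coding transcript on the other strand.

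MED28 had 4 positions, all in its 3' UTR on chromosome 4. It had 29 reads in siTRMT6 1, spread over 3 positions, and 12 in control 2. MED16 (minus strand), a tail subunit, had the highest Mediator count, 21 reads in siTRMT6 1 at 879952 of chromosome 19, with none listed elsewhere. The remaining Mediator genes had 1 to 3 positions each. MED17 and MED22 had siTRMT6 1 reads (7 and 16), MED6, MED24 and MED26 had control 2 reads (7, 15 and 7), and MED25 and MED29 had reads of both conditions. The MED26 position was also listed for a second transcript name on the same strand.

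The TAF genes had 19 positions in 13 genes, 9 with siTRMT6 and 10 with control reads. The most in 1 gene was 2 positions, in 6 genes: TAF1, TAF4, TAF6, TAF11, TAF15 and TAF1C. TAF1, the largest TFIID subunit, had 8 reads in siTRMT6 1 and 5 in control 2, and TAF4 (minus strand), a TFIID scaffold subunit, had 9 and 8 in the same libraries. TAF6 (minus strand), a histone-fold subunit, had reads only in control 2, with 15 at 100114274 in coding sequence and 11 at 100119368 in the 5' UTR. TAF11 had 7 reads in siTRMT6 1 and 6 in control 2 at 5' UTR bases 10 nt apart. TAF15 had 8 reads in siTRMT6 1 and 12 in control 2, and TAF1C (minus strand) had 7 in siTRMT6 2 and 15 in control 2. All of these genes except TAF6 thus had reads in both conditions.

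Of the other TAF genes, TAF10, TAF1D, TAF6L and TAF7 had reads in siTRMT6 1 only (14, 8, 6 and 10), TAF5L and TAF9 in control 2 only (6 and 8), and TAF12 had 5 reads in control 1. The TAF9 position was also listed for AK6, whose gene overlaps it on the same strand. The TAF genes held 6 of the 11 positions of transcription genes in a 5' UTR, or 31.6% of their 19 positions, against 11.4% in the whole table. All 6 were on minus-strand transcripts, and the listed base read T on the transcript strand in each, as printed above. Of the TAF positions 26.3% were on plus-strand transcripts, against 74.0% in the whole table. The part of strand in the 5' UTR share was not tested.

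The general factors had 32 positions in 13 genes, 17 with siTRMT6 and 15 with control reads. GTF2I, which encodes the transcription factor TFII-I, had the most, 7 on chromosome 7, with 16 and 6 reads in siTRMT6 and 7 and 32 in control. In coding sequence, 3 of them lay within 25 nt and held 7 reads each, from siTRMT6 1 at 74691059, control 1 at 74691047 and control 2 at 74691072. GTF2I has near-identical pseudogene copies, and GTF2IP1, one of them, was listed with 5 reads in control 2; how the authors' counting split such reads is not given, so both values are uncertain. GTF2IRD1, a related gene, had 12 and 6 siTRMT6 reads over 3 positions and no listed control reads. GTF2H2C, a near-identical copy of the TFIIH gene GTF2H2, had 12 reads in siTRMT6 1 over 2 positions and is uncertain for the same reason. GTF2A1, GTF2E1 and GTF2E2, of TFIIA and TFIIE, each had 5 reads in control 2.

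The TFIIIC genes were listed across libraries. GTF3C1 (minus strand), the largest subunit, had 23 reads in siTRMT6 1 and 0 in siTRMT6 2, against 11 in control 1 and 12 in control 2. GTF3C4 had 22 and 0 reads in siTRMT6, against 6 and 7 in control, over 5 positions on chromosome 9. GTF3C5 had 8 and 8 reads in siTRMT6, against 0 and 17 in control, and its control 2 position at 133058370 (3' UTR) was the highest of the class. For these 3 genes the siTRMT6 and control values overlapped. GTF3C2 had 6 reads in siTRMT6 2, GTF3C6 had 5 in control 2, and the non-coding GTF3C2-AS1 had 6 in siTRMT6 2 and 12 in control 2 at bases 38 nt apart. GTF3C2-AS1 is antisense to GTF3C2, and whether the counting used strand is not given.

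The class formed from the SUPT, NELF, AFF and ELL symbols, called elongation here, had 23 positions in 6 genes, 16 with siTRMT6 reads and 7 with control reads. That is 69.6% with siTRMT6 reads, against 49.7% in the whole table. Without SUPT7L, a subunit of SAGA-type complexes left out after seeing the data, it had 22 positions in 5 genes, 15 with siTRMT6 reads (68.2%). Of the 16, siTRMT6 1 held 12 and siTRMT6 2 held 4, so without siTRMT6 1 the split was 4 to 7. SUPT5H, the large subunit of the pausing and elongation factor DSIF, had the most positions of any transcription gene, 8 in coding sequence on chromosome 19. It had 62 and 6 reads in siTRMT6, against 8 and 21 in control. The 62 reads of siTRMT6 1 were 15 at 39453499, 10 at 39464945, 18 at 39469295 and 19 at 39474530. siTRMT6 1 was above both controls and siTRMT6 2 below both.

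SUPT6H, a histone chaperone that travels with the polymerase, had 19 and 12 reads in siTRMT6, against 0 and 36 in control. Its 4 positions lay in coding sequence within 2828 nt of chromosome 17, with 18 control 2 reads at each of 28675120 and 28676314. NELFB, a subunit of the pausing factor NELF, had 4 positions on chromosome 9, all with siTRMT6 reads: 7 in siTRMT6 2 at 137255999, and in siTRMT6 1 12 at 137256337, 12 at 137256969 and 14 at 137272967 (3' UTR). Its summed reads at listed positions were 38 and 7 in siTRMT6 and 0 and 0 in control. That is 15.02-fold over a floor of 3 control reads, if a listed 0 means no reads. Positions were listed only with an authors' p below 0.05, so listed positions of few reads show large ratios by selection. Reads of the gene at unlisted positions are missing, so the ratio is not a lower bound for the gene. Without siTRMT6 1, 7 of the 45 reads were left. NELFCD, another NELF subunit, had 9 reads in siTRMT6 1 in its 3' UTR and 15 in control 2 in coding sequence. AFF1, a scaffold of the super elongation complex, had 15 and 7 reads in siTRMT6, against 0 and 6 in control, over 4 coding positions. SUPT7L (minus strand) had 8 reads in siTRMT6 1.

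**Figure D2:**
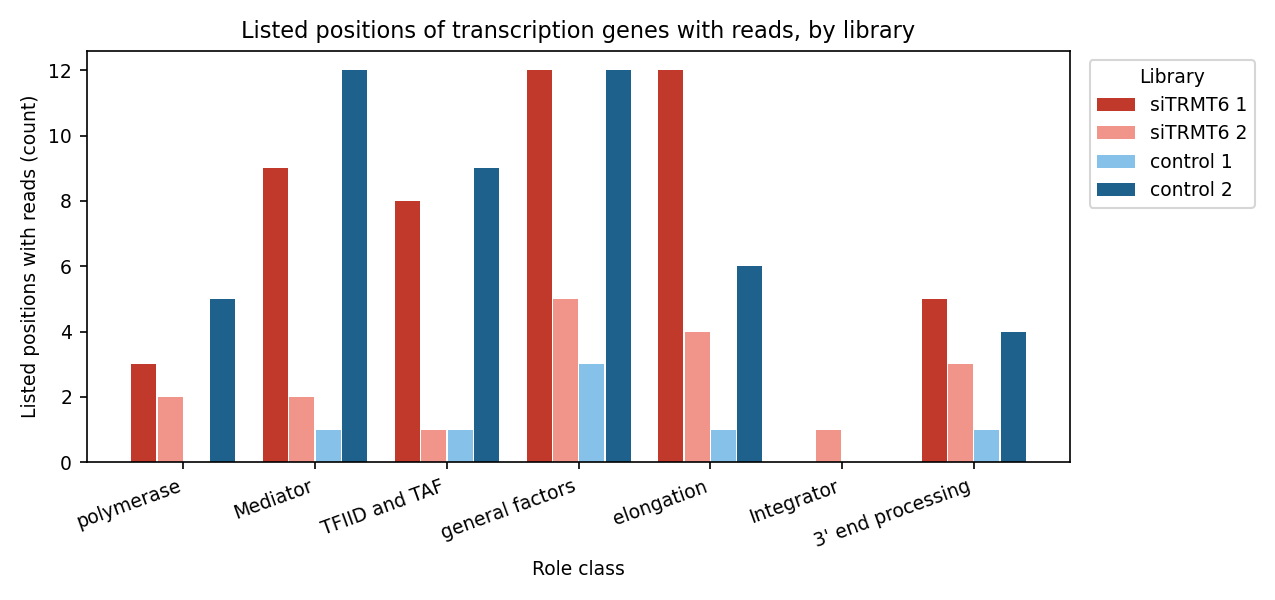
Number of listed positions with reads (y axis) in each library (colour) by role class (x axis). In elongation genes siTRMT6 1 had 12 positions, siTRMT6 2 had 4, control 1 had 1 and control 2 had 6; control 1 had at most 3 positions in any class.

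Under the INTS symbols a single position was listed, in INTS3, an Integrator subunit, with 6 reads in siTRMT6 2 in coding sequence at 153773081 of chromosome 1. The cleavage and polyadenylation genes had 13 positions in 7 genes, 8 with siTRMT6 and 5 with control reads, 11 of them in coding sequence. CPSF6, a subunit of cleavage factor I that helps choose poly(A) sites, had 5 positions on chromosome 12 and reads in all 4 libraries, 6 and 9 in siTRMT6 and 6 and 12 in control. CSTF2, which binds the downstream element of poly(A) sites, had 6 reads in siTRMT6 1 and 5 in control 2. CSTF2T (minus strand), its intronless paralog, had 15 reads in siTRMT6 1 and 8 in siTRMT6 2 at coding positions of chromosome 10. It had no listed control reads, which is 7.68-fold on the floor and condition given for NELFB, with the same limits. CPSF1 (minus strand), the subunit with the highest CPSF count, had 14 reads in siTRMT6 1. CPSF3, the cleavage endonuclease, had 7 reads in siTRMT6 1, CPSF4 had 6 in siTRMT6 2 and CPSF2 had 7 in control 2.

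Tested as replicated libraries with edgeR's quasi-likelihood test and Benjamini-Hochberg adjustment over the whole table, no transcription gene was called. By position, 34 of 9962 passed the filter on low counts and 64.7% of these were called, but none of the 34 belonged to a transcription gene. These calls depended on the method: of the 34, edgeR called 14 with equal scaling factors and 0 with replicate number as a block. DESeq2 called 0 of them. By gene, with the reads of all positions summed, 975 genes were tested and 0% were called. Among them were 13 transcription genes, of which 0 were called. At an unadjusted p below 0.05 edgeR had 1 of these genes (CSTF2T, adjusted p = 0.386) and 126 of all 975. DESeq2 also called 0 of the 13 transcription genes, with 1 at an unadjusted p below 0.05 (NELFB, DESeq2 adjusted p = 0.997). Of all 975 genes it called 1 (0.103%) and had 45 at an unadjusted p below 0.05. In edgeR the adjusted p of NELFB was 0.387. The other 11 tested genes each had an adjusted edgeR p of 0.9998. A gene passed the filter only where at least 2 libraries were above its count limit, so the 43 untested genes are not shown to be unchanged. NELFB and CSTF2T had no listed control reads and passed it through the siTRMT6 libraries alone. Their low unadjusted p-values are therefore no separate evidence of a change.

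Positions of a gene within 200 nt of each other were then joined and their reads summed, since libraries often had reads at nearby but different bases. The 121 positions gave 102 regions, of which 14 held more than 1 position. In the 19 neighbouring pairs inside them, the distance ran from 3 to 195 nt with a median of 35, and 0 pairs came from 1 library. In 14 pairs the neighbours came from different conditions. Pairs were not counted over the whole table, so these counts are not shown to be particular to the transcription genes. Reads of both conditions were held by 11 regions, 21.6% of the 51 regions with control reads and 17.7% of the 62 with siTRMT6 reads. In the whole table these shares were 28.8% and 30.3%. Scaled by listed reads per condition, the log2 ratio of siTRMT6 over control in the 11 ran from -0.998 to 0.32, with a median of -0.73 and 8 below 0. Over all 1470 such regions the median was -0.15, and 56.7% were below 0. These regions hold few reads and were selected for having reads in both conditions, which favours ratios near 1. They also rest on the larger libraries: 2 were left without siTRMT6 1, and 4 without control 2.

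The 2 SUPT5H regions show the pattern base by base. At 39459193 siTRMT6 2 had 6 reads, and 3 nt further control 2 had 10. Within 57 nt, siTRMT6 1 had 10 reads at 39464945, control 1 had 8 at 39464888 and control 2 had 11 at 39464931. In MED28, 10 siTRMT6 1 reads at 17624733 and 12 control 2 reads at 17624726 lay 7 nt apart, and in MED15 6 reads of each of these libraries lay 8 nt apart. At each of these bases the authors' deposited table gave a call, higher at the siTRMT6 bases and lower at the control bases (log2 fold changes of 4.14 and -4.77 for the MED28 pair). Regions where both siTRMT6 libraries and no control library had reads were found in POLR2A, POLR2B, AFF1 and GTF2IRD1, 3.92% of the 102, against 3.7% of all 8488 regions, and the reverse in no region, against 1.86%.

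**Figure D3:**
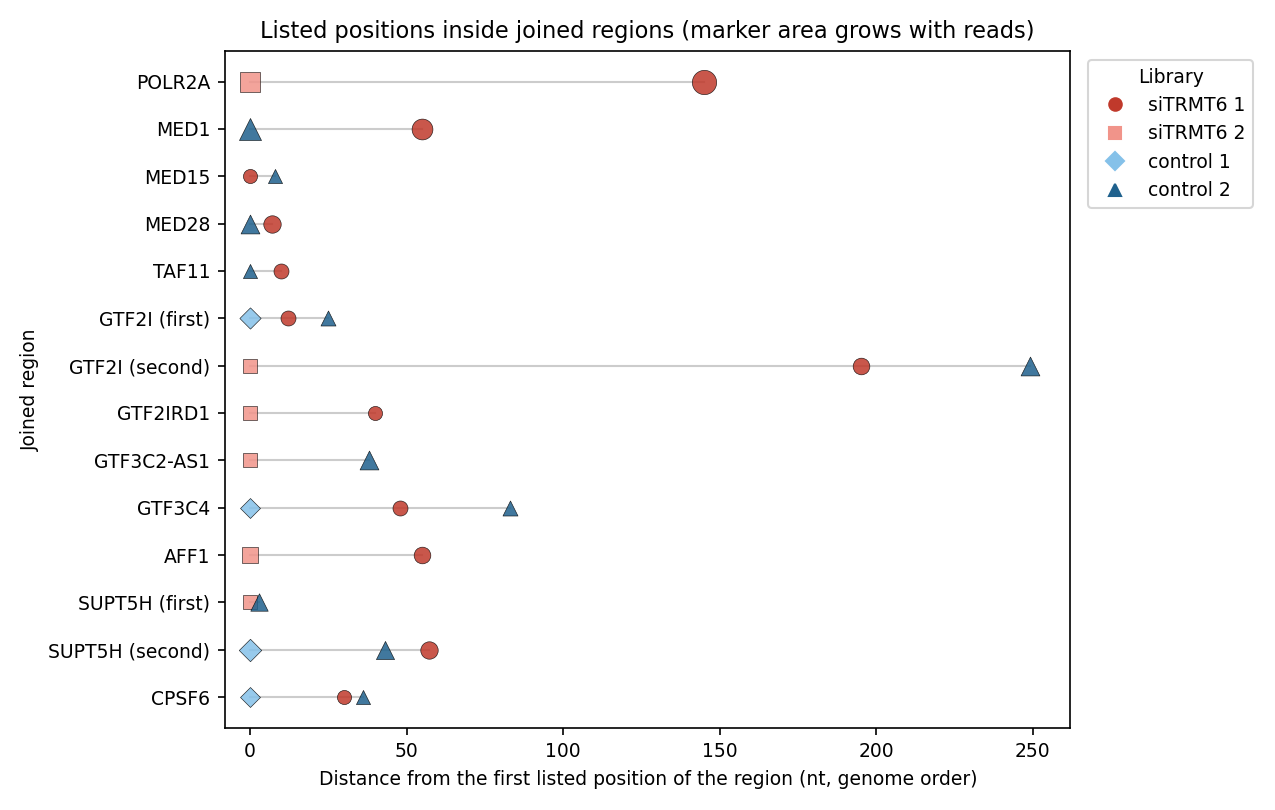
Listed positions inside the 14 joined regions with more than 1 position, as distance in nt from the region's first position (x axis) for each region (y axis); colour and marker give the library and marker area grows with reads. No library appears more than once in a region, and 11 of the 14 hold siTRMT6 and control reads.

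Of the 102 regions, 2 passed the filter on low counts, and edgeR called 0 of the 525 regions tested (0%), 131 of them with an unadjusted p below 0.05. The downstream POLR2A region had 21 and 14 reads in siTRMT6 and 0 and 0 in control (edgeR adjusted p = 0.0606). That is 11.7-fold on the floor and condition given for NELFB, with the same limits. In edgeR the region's adjusted p was 0.421 with equal scaling factors and 0.609 without the filter on low counts, and in DESeq2 it was 0.667. Its 2 positions lie 145 nt apart, so joining within 100 nt left them separate. The filter needs at least 2 libraries above its count limit, of the same or of different conditions. With 0 control reads, the POLR2A region passed it through the siTRMT6 libraries alone. The filter thus favoured this pattern, and the region's p-value is no separate evidence of a change. The MED1 region had 15 and 0 reads in siTRMT6 and 0 and 17 in control (edgeR adjusted p = 0.9995). DESeq2 called 0 of these 2 regions, with 0 at an unadjusted p below 0.05, and 0 of all 525 regions (0%), 10 of them with an unadjusted p below 0.05.

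By transcript region, 83 of the 121 positions (68.6%) lay in coding sequence, 24 (19.8%) in a 3' UTR, 11 (9.09%) in a 5' UTR and 3 in non-coding transcripts. In the whole table these shares were 63.9% for coding sequence, 20.9% for the 3' UTR and 11.4% for the 5' UTR. Differences between the classes were not tested, and single genes held a large part of some counts. Elongation genes had 21 of 23 positions in coding sequence, 8 of these in SUPT5H, Mediator genes had 10 of 24 in the 3' UTR, 4 of these in MED28, and the TAF genes had the 5' UTR positions described above. Within 50 nt of a transcript start lay 3 positions: TAF12 at transcript base 15, GTF2E2 at 26 and TAF6 at 31, all on minus-strand transcripts. That is 2.48%, against 4.07% in the whole table.

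**Figure D4:**
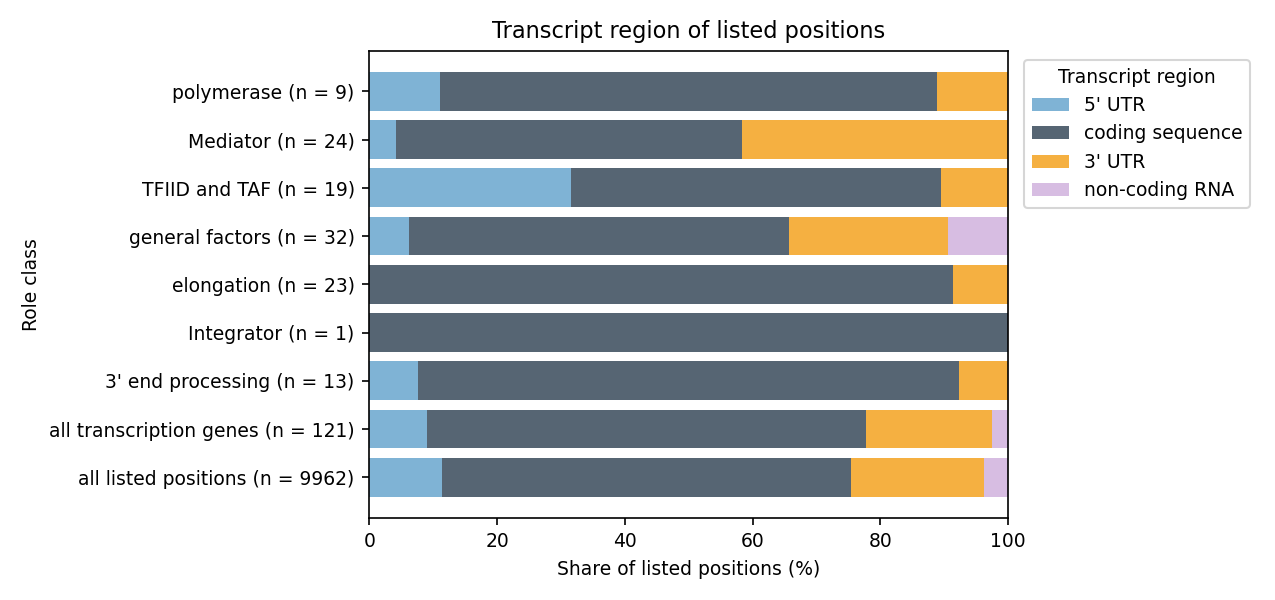
Share of listed positions (%, x axis) in each transcript region (colour) for each role class and for all listed positions (y axis, with the number of positions). Coding sequence makes up 91.3% of elongation positions and 54.2% of Mediator positions. The 5' UTR makes up 31.6% of TAF positions, all of these on minus-strand transcripts.

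Other genes of polymerase II transcription, outside the symbols chosen, were listed as follows. Of 59 genes in 6 role lists, 35 had a position, with 36 positions of siTRMT6 and 46 of control reads; 7 were tested by edgeR and 0 were called (0 at an unadjusted p below 0.05). The kinases and cyclins had 5 of 12 listed. CDK9, the kinase that releases paused polymerase, had 28 and 10 reads in siTRMT6, against 0 and 29 in control. The list of the Paf1 complex, FACT and others had 8 of 10 genes, with 1 position of siTRMT6 and 15 of control reads. siTRMT6 1 held 10 of its reads, control 1 held 14 and control 2 held 120. Among P-TEFb regulators, MEPCE had 40 and 18 in siTRMT6, against 0 and 21 in control. Capping and 3' end genes had 9 of 11 listed, such as PCF11 with 19 reads in siTRMT6 1 and PABPN1 with 28 in siTRMT6 1 and 25 in control 2.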

How the data were processed

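Per the labels' protocols, m1A fragments of oligo(dT)-purified RNA were immunoprecipitated and sequenced. Tools named in the submitters' processing notes are STAR and FastQC 0.11.3, with build hg38. How sites were called, counted and tested is not given in the sources used here. The deposited table holds whole-number counts of reads per position in 4 columns, an authors' log2 fold change and authors' p-values and adjusted p-values, per the file headers. The count columns carry condition and number only and were taken as m1A libraries because the table lists m1A sites; input subtraction is not stated. Each of the 126 distinct pairs of summed siTRMT6 and control counts had 1 p. Sites were taken as counted from 0, since then all 511 positions in RefSeq windows read A on the genome's plus strand, and are given counting from 1.

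Counts were kept once per position and gene. edgeR 4.0.16 (R 4.3.3) was run over all positions, genes and regions joined within 200 nt. It used TMM, filterByExpr with minimum count 10, the quasi-likelihood test and Benjamini-Hochberg adjustment at 0.05. DESeq2 1.42.0 was an alternative. edgeR was also run on simulated gene counts whose dispersion (spread between replicates) was 0.05, against 2.6 fitted by gene in these data. That run therefore does not show how edgeR performs at the real spread. The transcript region is the one most transcripts of a gene gave. Genes named were those with reads in 3 or more libraries, all POLR2 and NELF genes, positions with reads in 2 libraries, and per class the 2 with most positions and the 2 highest positions; the remaining genes are given by class. The genes and lists were chosen with earlier results of these data known. The counts' precision is limited by 5 to 21 reads per position.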

Additional observations from a re-analysis of the deposited data

How the results depend on the processing

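No position, gene or region of the transcription machinery was called by edgeR or in any alternative: equal scaling factors in place of TMM, DESeq2, no filter on low counts, joining within 100 or 500 nt, leaving out each library, or the replicate block (0 called in each, with 0 to 121 tested). Many of these settings could call nothing. By position, 0 were tested in the main setting, with equal scaling factors, the replicate block or DESeq2, and without control 2 or siTRMT6 1. By region, joining within 100 nt tested 1. These settings are therefore no separate support for the absence of calls. The labels do not say that a replicate number pairs libraries. Over 975 genes the same-numbered libraries' deviations correlated at -0.083, and under the replicate block the POLR2A region, NELFB and CSTF2T had an adjusted edgeR p of 1. Regions with reads of both conditions numbered 11, 11 within 100 nt, 14 within 500 nt and 9 on plus-strand transcripts; leaving out 1 library gave 2 to 11. At an authors' adjusted p below 0.01, 32 of the 66 siTRMT6 positions and 27 of the 55 control positions remained. On plus-strand transcripts, chosen after seeing the data, 50 siTRMT6 and 35 control positions were left. Leaving out a library, also chosen after seeing the data, gave 18 to 49 siTRMT6 positions and 7 to 48 control positions. Positions in coding sequence numbered 85 in place of 83 when any transcript counted. The elongation positions and NELFB reads also rest mainly on siTRMT6 1. Few reads per position and the missing input values limit every comparison.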

Other observations

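RefSeq lists 153 protein-coding genes under the chosen symbols, and 55 of them (35.9%) had a listed position under a current or older symbol, against 22.03% of 20052 protein-coding genes. Expression and length were not matched in this comparison. The share was 33.3% for polymerase genes (5 of 15), 36.7% for Mediator (11 of 30), 35.1% for TAF genes (13 of 37, TAF11-like copies included), 42.3% for the general factors (11 of 26), 33.3% for elongation (6 of 18) and 63.6% for 3' end processing (7 of 11). Genes with no listed position included MED12 and MED13 of the Mediator kinase module, the NELF subunits NELFA and NELFE, SUPT4H1, which partners SUPT5H in DSIF, and ELL.

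Integrator had 2 of 16 (12.5%), INTS3 and INTS15. INTS15 is listed in the table under its older symbol C7orf26, which the chosen symbols do not match. Its 3' UTR on chromosome 7 held 8 siTRMT6 1 reads at 6608239 and 8 control 2 reads at 6608237, and coding sequence held 6 siTRMT6 1 reads at each of 6594506 and 6600279.

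By gene, 23 of the 56 transcription genes (41.1%) had reads of both conditions at different positions, 17 of siTRMT6 only and 16 of control only. Among all 4945 genes 39.1% had reads of both conditions, 1337 genes had reads of siTRMT6 only and 1675 of control only. Reads in 3 or 4 libraries were listed for 12 transcription genes (21.4%), against 15.7% of all genes.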
